A study of Homo sapiens with 9 samples.

Results

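Transforming growth factor beta (TGF-beta) is a secreted signal that many tumour cells both make and receive. Its ligands bind the type II receptor, which phosphorylates the type I receptor, and a co-receptor helps to present the ligand. The type I receptor phosphorylates SMAD2 and SMAD3, which join SMAD4 and act on genes in the nucleus, while SMAD7 and SKIL restrain the pathway and are themselves induced by it. In epithelial tumours the pathway is known both for slowing growth and for promoting mesenchymal traits. The 10 genes described here were chosen by name and are the ligands TGFB1 and TGFB2, the receptors TGFBR1, TGFBR2 and TGFBR3, the transducers SMAD2, SMAD3 and SMAD4, and the inhibitors SMAD7 and SKIL. All 10 were found among the 29972 genes of the deposited table, and all 10 were among the 13498 genes with enough signal to be tested.

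The cells were H2030, a human line established from a non-small cell lung cancer, transfected with siRNA at 20 nmol/L by a lipid reagent. The siMENA11a group received a mix of siRNAs against exon 11a of ENAH, the siMENA group a commercial pool against all ENAH isoforms, and the control group a non-targeting pool from another reagent line. ENAH encodes hMENA, a regulator of actin filaments, and the series asks which programmes respond to loss of the isoform that holds exon 11a. Each of the 3 groups had 3 numbered libraries, and no label says whether they are separate cultures. The p-values therefore speak of the spread between libraries, which may be technical. The labels name no addition of TGF-beta or of a pathway inhibitor, and the medium held serum. The time from transfection to harvest is not given in the labels.

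Values are TPM, a transcript abundance corrected for gene length and library total, divided here by a size factor per library and then named scaled TPM. Log2 fold changes, taken on log2(scaled TPM + 0.5), are given with their standard error. Calls need a limma p under 0.05 after Benjamini-Hochberg adjustment across the tested genes. Size factors were 0.886 to 0.973 in siMENA11a, 1.06 to 1.09 in siMENA and 0.995 to 1.04 in control, and small and structured RNAs took 63.2% to 65.4%, 59.0% to 60.7% and 57.5% to 59.4% of the TPM in these groups. With the deposited TPM unscaled, the median gene shifted by -0.11 on the log2 scale in siMENA11a and by 0.09 in siMENA relative to control, and by -0.20 between siMENA11a and siMENA. Without small and structured RNAs these medians were 0.10, 0.13 and -0.03, so changes of that size hang on the scaling. ENAH itself averaged 47.6 ± 1.01 scaled TPM in siMENA11a, 7.22 ± 0.306 in siMENA and 43.8 ± 0.77 in control (SD, n = 3 each). This sum over isoforms bears on the siMENA label, while for siMENA11a it checks nothing, since exon 11a is not measured apart. Of 6 epithelial markers, KRT8 and KRT18 stood at 89.5 to 252 scaled TPM in the group means, whereas CDH1 and KRT19 reached no more than 0.14 and 0.05 TPM in any library. KRT7 averaged 15.8 scaled TPM in siMENA11a, 4.32 in siMENA and 9.93 in control, and EPCAM 2.90, 3.10 and 1.46 in these groups. The sum of the 6 was 315 to 329 in siMENA11a, 312 to 331 in siMENA and 356 to 368 in control. The sum of 7 fibroblast markers was 7.82 to 8.24, 15.4 to 17.3 and 8.86 to 9.44 in these groups, mostly COL1A1. COL3A1 reached at most 1.61 TPM and LUM 0.53 TPM in any library, and COL1A2, DCN, PDGFRA and PDGFRB no more than 0.08 TPM. The sum of 8 lung lineage markers was 0.247 to 0.407 scaled TPM in siMENA11a, 0.457 to 0.511 in siMENA and 0.331 to 0.538 in control. Of these markers, SFTPA1, SFTPC and SCGB1A1 were at 0 in all libraries, and each of the others was above 0 in at least 1. The sum of 6 leukocyte markers was 2.73 to 3.24 in siMENA11a, 3.58 to 3.80 in siMENA and 2.53 to 2.94 in control, nearly all of it LCP1 and CD14, with CD3E at 0 and PTPRC at no more than 0.06 TPM. In bulk RNA, fewer cells that express a gene and less of its RNA per cell cannot be told apart.

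The knockdowns moved different members of the pathway most. Under siMENA11a the type II receptor gene TGFBR2 fell to 20.7% of its control level, and the changes of the other members were smaller. Under siMENA the ligand gene TGFB2 fell furthest, and TGFB1, TGFBR1, TGFBR2, SMAD3 and SMAD7 fell with it. For siMENA11a against control, 3 of the 10 members were called higher and 4 lower, beside 27.9% and 27.7% of all tested genes, or 55.6% in either direction. For siMENA against control, 2 were called higher and 6 lower, beside 23.7% and 25.8% of all tested genes, or 49.4% in either direction. For siMENA11a against siMENA, 6 were called higher and 3 lower, beside 29.5% and 29.2% of all tested genes, or 58.7% in either direction. The libraries of the groups did not overlap for 7, 9 and 10 members in these comparisons, beside 62.9%, 57.6% and 65.1% of all tested genes. With calls this common, the number of members called is no result about the pathway, and the sizes of the changes follow. The median absolute log2 fold change of the members was 0.17, 0.36 and 0.41 in these comparisons, against 0.23, 0.20 and 0.25 for all tested genes. Both comparisons with control share the same 3 control libraries.

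**Figure D1:**
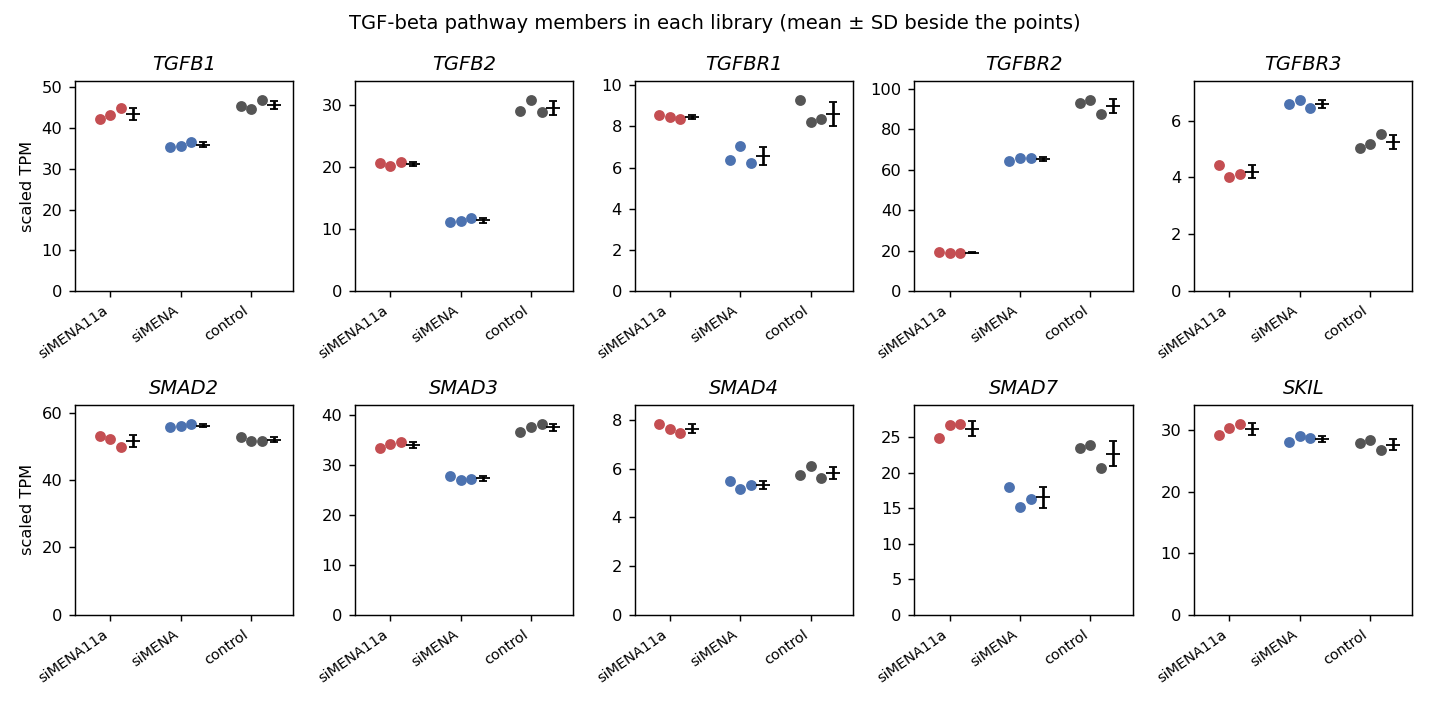
Scaled TPM (vertical axes, each from 0) of the 10 members in each library; points are libraries 1 to 3 of siMENA11a (red), siMENA (blue) and control (grey), with the mean and SD beside them. TGFBR2 lies near 19 scaled TPM in all siMENA11a libraries and between 87.6 and 94.5 in control, and TGFB2 is lowest in siMENA.

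TGFB1 and TGFB2 encode ligands that are secreted in a latent form. Gene positions are those of GENCODE 29 on GRCh38, and TGFB1 lies at chr19:41301587-41353911 on the minus strand and TGFB2 at chr1:218346235-218444619 on the plus strand. TGFB2 stood at 20.7, 20.3 and 20.8 scaled TPM in siMENA11a, at 11.1, 11.3 and 11.8 in siMENA and at 29.1, 30.9 and 28.9 in control. The groups did not overlap, with siMENA lowest and control highest. The log2 fold change of TGFB2 was -0.51 ± 0.039 for siMENA11a (limma adjusted p = 5.29e-06) and -1.34 ± 0.039 for siMENA (adjusted p = 4.49e-08) against control. Only 1.01% of all tested genes had a larger absolute change than TGFB2 under siMENA, against 16.8% under siMENA11a. Directly compared, TGFB2 was higher in siMENA11a than in siMENA by 0.83 ± 0.039 (adjusted p = 1.94e-07). TGFB1, the ligand most often studied in lung tumours, stood at 42.1, 43.3 and 45.0 scaled TPM in siMENA11a, at 35.5, 35.7 and 36.6 in siMENA and at 45.5, 44.8 and 46.9 in control. The siMENA libraries lay below all others, while the siMENA11a and control libraries overlapped. TGFB1 fell under siMENA by 0.34 ± 0.034 on the log2 scale (adjusted p = 3.8e-05), and its value of -0.07 ± 0.034 under siMENA11a was not called (adjusted p = 0.106, 95% interval -0.15 to 0.01), though it was called lower in TPM as deposited (-0.20, adjusted p = 0.0138). Exons of TGFB1 overlap those of HNRNPUL1 on the opposite strand, a gene at a mean of 92.5 scaled TPM. Whether the authors' counting used strand is not known, so the level and the fold changes of TGFB1 are uncertain. Exons of TGFB2 and SMAD4 overlap those of TGFB2-OT1 and AC091551.1 on the same strand, and exons of SMAD3 those of AC087482.1 on the opposite strand. None of these overlapping genes of TGFB2, SMAD4 and SMAD3 is in the deposited table, so their levels are not known.

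Among the receptor genes, TGFBR2 carried the largest change of the pathway. TGFBR2 (chr3:30606502-30694142, plus strand) encodes the ligand-binding type II kinase that starts the signal. It stood at 19.1, 18.9 and 18.9 scaled TPM in siMENA11a, at 64.4, 65.9 and 65.9 in siMENA and at 92.9, 94.5 and 87.6 in control. Its siMENA11a libraries differed among themselves by an SD of 0.111 and lay at 20.7% of the control mean, and those of siMENA lay at 71.3% of it. The log2 fold change was -2.25 ± 0.034 for siMENA11a (adjusted p = 6.7e-10) and -0.48 ± 0.034 for siMENA (adjusted p = 3.88e-06) against control, and -1.76 ± 0.034 for siMENA11a against siMENA (adjusted p = 1.15e-09). Against control, TGFBR2 ranked 10 from the lowest of 13498 fold changes under siMENA11a and 1191 from the lowest under siMENA. Across the 14 other settings tried, its siMENA11a value ran from -2.38 to -2.18.

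TGFBR1 (chr9:99104038-99154192, plus strand) encodes the type I kinase that activates the SMADs, and it was expressed at a much lower level than TGFBR2 in control. It stood at 8.54, 8.43 and 8.35 scaled TPM in siMENA11a, at 6.36, 7.04 and 6.22 in siMENA and at 9.28, 8.21 and 8.34 in control. The siMENA libraries were below all others, and those of siMENA11a and control overlapped. TGFBR1 fell under siMENA by 0.37 ± 0.0615 on the log2 scale (adjusted p = 0.000845), and the siMENA11a value of -0.03 ± 0.0615 was not called (adjusted p = 0.749, 95% interval -0.16 to 0.11). TGFBR3 (chr1:91680343-91906335, minus strand) encodes betaglycan, a co-receptor that presents TGF-beta 2 in particular to the type II receptor. TGFBR3 stood at 4.45, 4.02 and 4.13 scaled TPM in siMENA11a, at 6.57, 6.72 and 6.45 in siMENA and at 5.05, 5.16 and 5.53 in control. It changed in opposite directions under the knockdowns, lower by 0.29 ± 0.057 in siMENA11a (adjusted p = 0.00204) and higher by 0.30 ± 0.057 in siMENA (adjusted p = 0.00191) than in control, with no overlap of libraries in either case. The direct difference between siMENA11a and siMENA was -0.59 ± 0.057 (adjusted p = 1.63e-05).

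The sequence of an exon of ENAH and of the annotated 3′ UTR of the members was set beside these falls, because siRNA guides can pair with short matching words in 3′ UTRs of other transcripts. This exon, 63 bases long, was taken to be exon 11a, which neither the labels nor the annotation states, and every match given here rests on that. It lies in the coding sequence on the minus strand of GRCh38 at chr1:225504991-225505053. The siRNA sequences themselves were not used here. Of the 57 words of 7 bases in this exon, CCAAGGA and CAAGGAA had the lowest median log2 fold change of carriers under siMENA11a (-0.09 and -0.08). They overlap as CCAAGGAA and are in capitals below. In the TGFBR2 and TGFB2 lines the capitals mark these words only, not any longer run shared with the exon. They were picked on the same comparison, so nothing about TGFBR2 is supported by them. The following lines show the exon, the matches in TGFBR2 (chr3:30691966-30691995 and chr3:30693855-30693884, plus strand) and TGFB2 (chr1:218443782-218443811, plus strand), and the longest run that any member shares with the exon, in SKIL (chr3:170394348-170394377, plus strand, run in capitals). All are read 5′ to 3′ on the transcript strand from GENCODE 29 on GRCh38.
ENAH exon: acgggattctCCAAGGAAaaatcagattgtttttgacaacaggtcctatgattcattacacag
TGFBR2 3′ UTR, first match: ttgaaaagagaCAAGGAAaaacatcaaata
TGFBR2 3′ UTR, second match: aagaaaaaagaCCAAGGAAtaacattctgt
TGFB2 3′ UTR: ggtggaggtggCAAGGAAggggtgaagtgc
SKIL 3′ UTR: tctggagAAGGAAAAATCAGATatttatga

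The words were searched in the 3′ UTRs of the members and of the other tested genes. On the transcript strand, CCAAGGA was found in the longest annotated 3′ UTR of 15% and CAAGGAA in that of 16.3% of 11320 tested genes searched, and either word in that of 24.1%. Genes with either word had longer 3′ UTRs, with a median of 2858 bases, against 1050.5 bases for the others. Of the 10 members, TGFB2, TGFBR2, SMAD2, SMAD3 and SMAD4 held at least 1 of the words, and TGFB1, TGFBR1, TGFBR3, SMAD7 and SKIL held neither. Among the members called lower under siMENA11a, TGFBR2, TGFB2 and SMAD3 were thus carriers and TGFBR3 was not. Among those called higher, SMAD4 was a carrier, and SMAD7 and SKIL were not. TGFBR2 was the only member with the joined word CCAAGGAA, which 5.14% of the searched genes held. Carriers of that word, TGFBR2 among them, had a median log2 fold change of -0.16 under siMENA11a, against 0.02 for other genes. Under siMENA it was 0.04, against 0.01 for other genes. Both words in it were picked for low carrier medians in siMENA11a against control, so neither this median nor the members' calls test them. The part of 3′ UTR length in this was not tested. SMAD4 held the words at 3 places in a 3′ UTR of 6578 bases and was higher in siMENA11a, and SMAD2 held them at 4 places in one of 32870 bases and was not called. SKIL shared 15 bases in a row with the exon, as did 0.053% of the searched genes at that length or longer, and it was not lower. The longest shared run of TGFBR2, SMAD2 and SMAD3 was 11 bases each, a length that 4.36% of the searched genes reached. The part of these matches in the fall of TGFBR2 was not tested.

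SMAD2 (chr18:47808957-47931146, minus strand) and SMAD3 (chr15:67063763-67195195, plus strand) encode the receptor-activated transducers. SMAD3 stood at 33.4, 34.3 and 34.6 scaled TPM in siMENA11a, at 27.9, 26.9 and 27.2 in siMENA and at 36.7, 37.6 and 38.3 in control. No libraries overlapped between groups. The fall was 0.14 ± 0.031 on the log2 scale under siMENA11a (adjusted p = 0.0044) and 0.45 ± 0.031 under siMENA (adjusted p = 3.8e-06). The smaller of these depended on the scaling, with -0.05 and adjusted p = 0.256 once small and structured RNAs were removed and TPM rescaled. SMAD2 stood at 53.1, 52.3 and 49.7 scaled TPM in siMENA11a, at 55.8, 56.1 and 56.7 in siMENA and at 52.8, 51.6 and 51.8 in control. Its siMENA libraries were above all others, by 0.11 ± 0.032 over control (adjusted p = 0.0168), and those of siMENA11a and control overlapped (-0.01 ± 0.032, adjusted p = 0.829, 95% interval -0.08 to 0.06). The siMENA call was lost without control 2 or without siMENA 3 (0.10 in both, adjusted p = 0.0545 and 0.0543), and under siMENA11a SMAD2 was called lower in TPM as deposited (-0.14, adjusted p = 0.0126) and higher in rescaled TPM (0.08, adjusted p = 0.0477).

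SMAD4 (chr18:51028394-51085045, plus strand), the common partner of the receptor-activated SMADs and a tumour suppressor, was expressed far below SMAD2 and SMAD3. It stood at 7.84, 7.61 and 7.46 scaled TPM in siMENA11a, at 5.49, 5.15 and 5.33 in siMENA and at 5.72, 6.12 and 5.63 in control. The siMENA11a libraries were above all others, and those of siMENA were below those of control. SMAD4 rose by 0.36 ± 0.0515 on the log2 scale under siMENA11a against control (adjusted p = 0.000257) and was called higher under all 14 other settings (0.24 to 0.46). Under siMENA it was not called (-0.12 ± 0.0515, adjusted p = 0.0855, 95% interval before adjustment -0.23 to -0.0021).

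TGF-beta signalling induces the inhibitor genes SMAD7 (chr18:48919853-48952052, minus strand) and SKIL (chr3:170357678-170396835, plus strand) in many cells. Both were called higher in siMENA11a than in control, calls that depended on the setting, and the part of signalling in their levels was not tested. SMAD7, which blocks the type I receptor and recruits ubiquitin ligases to it, stood at 25.0, 26.8 and 26.9 scaled TPM in siMENA11a, at 18.1, 15.2 and 16.3 in siMENA and at 23.5, 24.0 and 20.7 in control. The 3 groups did not overlap, with siMENA11a highest and siMENA lowest. The call of SMAD7 under siMENA11a was weak (0.21 ± 0.072, adjusted p = 0.0355): it was lost in 6 of the 14 other settings, with adjusted p = 0.121 without control 3, 0.0924 without siMENA11a 2, 0.0963 without siMENA11a 3, 0.496 in TPM as deposited, 0.0601 without a filter and 0.0555 with the replicate block. The fall under siMENA was firmer, by 0.45 ± 0.072 (adjusted p = 0.000741), and so was the direct difference between siMENA11a and siMENA of 0.65 ± 0.072 (adjusted p = 3.99e-05). SKIL encodes SnoN, which represses SMAD target genes. It stood at 29.2, 30.3 and 31.0 scaled TPM in siMENA11a, at 28.0, 28.98 and 28.7 in siMENA and at 27.8, 28.4 and 26.8 in control. SKIL was called higher under siMENA11a (0.12 ± 0.036, adjusted p = 0.016), but its value was -0.01 in TPM as deposited (adjusted p = 0.933), and the call was also lost without control 3 (adjusted p = 0.0505) or siMENA11a 3 (adjusted p = 0.0545). Its libraries overlapped between siMENA and control (0.05 ± 0.036, adjusted p = 0.318), and it was called there only in rescaled TPM (0.17, adjusted p = 0.00623).

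**Figure D2:**
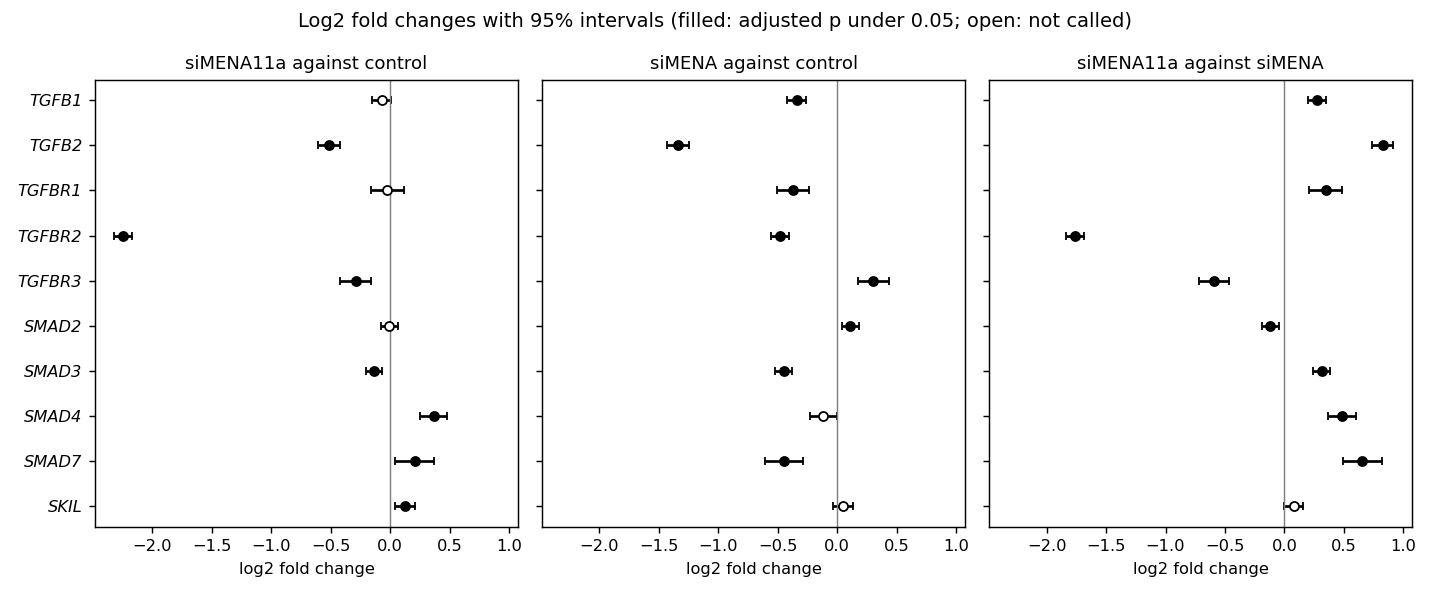
Log2 fold changes (horizontal axes) of the 10 members in the 3 comparisons, with 95% intervals; filled points had an adjusted p under 0.05 and open points did not. TGFBR2 at -2.25 and TGFB2 at -1.34 lie farthest from 0 against control, and TGFBR3 lies on opposite sides of 0 in the comparisons with control.

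Ratios of a pair of members within a library do not depend on the scaling and were taken from TPM as deposited. The cells held 2.23, 2.24 and 2.26 TGFBR2 transcripts for each TGFBR1 transcript in siMENA11a, 10.1, 9.37 and 10.6 in siMENA and 10.0, 11.5 and 10.5 in control. In siMENA both receptor genes were lower than in control and their ratio overlapped that of control, while in siMENA11a the ratio was lower in every library. The ratio of TGFBR3 to TGFBR2 was 0.233, 0.213 and 0.219 in siMENA11a, 0.102, 0.102 and 0.0979 in siMENA and 0.0543, 0.0546 and 0.0631 in control, so both knockdowns lay above control without overlap. TGFB2 to TGFB1 stood at 0.490, 0.467 and 0.463 in siMENA11a, 0.313, 0.317 and 0.322 in siMENA and 0.640, 0.690 and 0.616 in control, without overlap. SMAD2 to SMAD3 had group means of 1.52 ± 0.076, 2.06 ± 0.046 and 1.39 ± 0.045 in siMENA11a, siMENA and control (SD, n = 3 each), again without overlap. SMAD7 to SMAD3 was 0.769 ± 0.019 in siMENA11a, above all other libraries, and 0.604 ± 0.042 in siMENA, which overlapped control at 0.606 ± 0.057. SKIL to SMAD4 was 3.95 ± 0.219 in siMENA11a, 5.37 ± 0.263 in siMENA and 4.75 ± 0.116 in control.

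**Figure D3:**
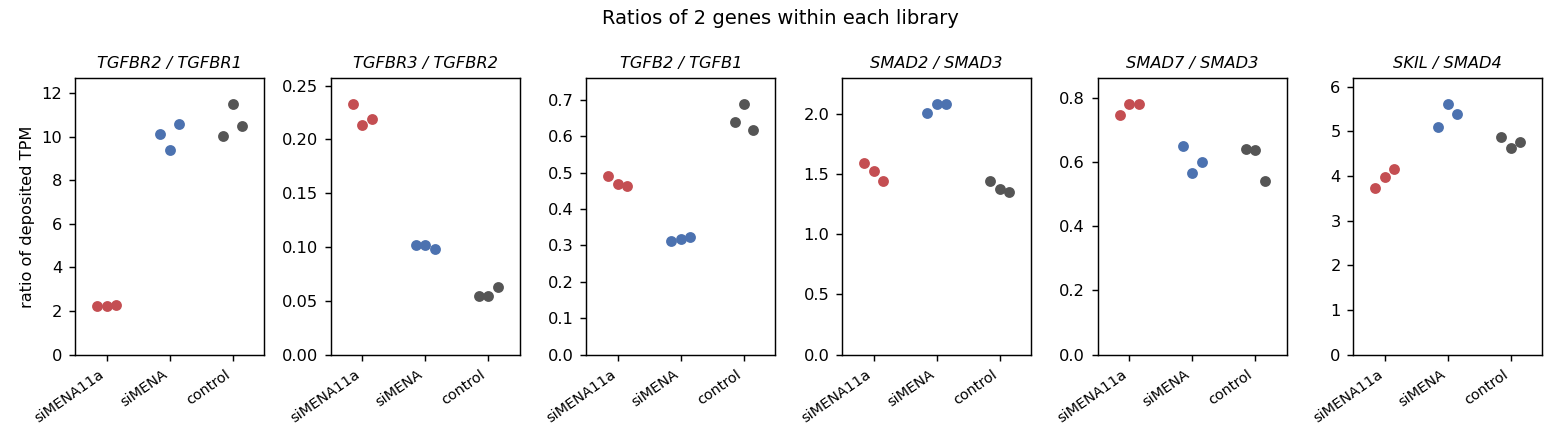
Ratio of deposited TPM of 2 genes within each library (vertical axes, each from 0), with 3 libraries per group in the order siMENA11a (red), siMENA (blue) and control (grey). TGFBR2 to TGFBR1 is near 2.2 in siMENA11a and between 9.37 and 11.5 elsewhere.

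The order of the members by level also differed between groups. TGFBR2 was the most abundant member in siMENA, at 65.4 ± 0.849 scaled TPM, and in control, at 91.7 ± 3.64, but only the seventh in siMENA11a, at 18.9 ± 0.111. SMAD2 led in siMENA11a at 51.7 ± 1.78 and was the next after TGFBR2 in siMENA and control. TGFBR1, SMAD4 and TGFBR3 were the 3 least abundant members in all groups. Neighbours in the order did not overlap in siMENA11a or control, and in siMENA only TGFBR3 at 6.58 ± 0.137 and TGFBR1 at 6.54 ± 0.438 did.

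Genes for other ligands and for the proteins that hold and release them were called in both directions. Of 21 such genes, 14 were tested, and 4 were called higher and 5 lower under siMENA11a (64.3% called, against 55.6% of all tested genes), with a median log2 fold change of 0.03, against 0.01 for all tested genes. THBS1, a matrix protein that can activate latent TGF-beta, averaged 119 ± 6.11 scaled TPM in siMENA11a, 246 ± 6.48 in siMENA and 453 ± 27.9 in control. It fell by 1.92 ± 0.052 on the log2 scale under siMENA11a and by 0.88 ± 0.052 under siMENA. LTBP3, which tethers the latent ligand, rose by 0.78 ± 0.078 under siMENA11a, while the related LTBP2 fell by 0.30 ± 0.051 and the integrin subunit ITGB3 by 0.82 ± 0.09. Under siMENA, 3 were called higher and 7 lower (71.4% called, against 49.4% of all tested genes, median -0.12). ITGAV, the integrin subunit through which cells pull latent TGF-beta open, averaged 61.5 ± 2.04 scaled TPM in siMENA11a, 24.2 ± 2.01 in siMENA and 48.1 ± 3.15 in control, and its fall under siMENA was 0.98 ± 0.065. ITGB3, a partner of ITGAV, fell under siMENA by 1.43 ± 0.09. TGFB3, the third ligand gene, averaged 4.29 ± 0.232 scaled TPM in siMENA11a, 7.11 ± 0.253 in siMENA and 3.90 ± 0.271 in control, so it rose under siMENA (0.79 ± 0.065, adjusted p = 1.16e-05), where TGFB1 and TGFB2 fell. In siMENA11a against siMENA, 8 were called higher and 4 lower (85.7% called, against 58.7% of all tested genes). The median was 0.18, against 0.00 for all tested genes. ITGAV was there at 1.33 ± 0.065, THBS1 at -1.04 ± 0.052, TGFB3 at -0.67 ± 0.065 and the matrix protease gene MMP14 at -0.76 ± 0.049. TGFB3 was not called under siMENA11a (0.12 ± 0.065, adjusted p = 0.134), but was in rescaled TPM (0.22, adjusted p = 0.0278).

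Genes for receptor partners, SMAD cofactors and SMAD turnover were called in both directions. Of 25, 22 were tested. Under siMENA11a 8 were called higher and 3 lower (50% called, against 55.6% of all tested genes, median 0.08). Under siMENA 7 were called higher and 9 lower (72.7% called, against 49.4% of all tested genes, median 0.01). In siMENA11a against siMENA, 10 were called higher and 6 lower (72.7% called, against 58.7% of all tested genes, median 0.04). SKI, a SMAD repressor related to SKIL, was lower under both knockdowns, at 16.6 ± 0.121 scaled TPM in siMENA11a, 16.4 ± 0.604 in siMENA and 24.7 ± 1.17 in control. SKI fell by 0.55 ± 0.043 under siMENA11a (adjusted p = 5.82e-06) and by 0.57 ± 0.043 under siMENA (adjusted p = 6.65e-06), whereas SKIL was not called lower in either. SKI was not called between siMENA11a and siMENA (0.02 ± 0.043, adjusted p = 0.742), but was lower there in TPM as deposited (-0.19, adjusted p = 0.0214). The ubiquitin ligase gene SMURF2, which targets the receptors together with SMAD7, fell by 0.54 ± 0.065 under siMENA11a. FKBP1A, whose product binds the resting type I receptor, rose there by 0.27 ± 0.0345, and the ligase gene WWP1 by 0.25 ± 0.043, a call lost in TPM as deposited (0.12, adjusted p = 0.104). Under siMENA the ligase gene NEDD4L and the SMAD phosphatase gene PPM1A fell by 0.35 ± 0.033 and 0.36 ± 0.045, and the corepressor gene TGIF1 rose by 0.35 ± 0.044. Between siMENA11a and siMENA, NEDD4L was 0.50 ± 0.033 and FKBP1A 0.41 ± 0.0345 higher, as were PPM1A (0.29 ± 0.045) and the acetyltransferase gene EP300 (0.26 ± 0.042), whose calls were lost in TPM as deposited (adjusted p = 0.336 and 0.538). ENG, an endothelial co-receptor, was at no more than 0.01 scaled TPM in the group means and was not tested.

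In the neighbouring BMP and activin branch, 21 of 25 genes were tested. Under siMENA11a 4 were called higher and 11 lower (71.4% called, against 55.6% of all tested genes, median -0.19). Under siMENA 8 were called higher and 10 lower (85.7% called, against 49.4% of all tested genes, median -0.23). The activin subunit genes fell under both. INHBB averaged 47.2 ± 1.99 scaled TPM in siMENA11a, 49.2 ± 2.95 in siMENA and 81.2 ± 1.11 in control, with log2 fold changes of -0.78 ± 0.047 and -0.72 ± 0.047. INHBA fell by 1.16 ± 0.085 under siMENA11a and by 0.67 ± 0.085 under siMENA. FSTL3, which binds and blocks activin, fell by 0.72 ± 0.033 and 0.51 ± 0.033. The ligand gene BMP6 rose by 0.99 ± 0.058 under siMENA11a. GDF15, a stress-induced member of the superfamily, rose by 1.06 ± 0.068 under siMENA, where the follistatin-like gene FSTL1 fell by 0.99 ± 0.072. In siMENA11a against siMENA, 4 were called higher and 9 lower (61.9% called, against 58.7% of all tested genes, median -0.12). BMP6 was there at 0.83 ± 0.058, GDF15 at -0.84 ± 0.068, and the ligand genes BMP2 at -1.30 ± 0.101 and GDF11 at -1.02 ± 0.1.

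Known TGF-beta target genes were called in both directions. The list does not separate genes that TGF-beta raises from genes that it lowers, so these counts do not measure signalling. Of 45, 41 were tested, and under siMENA11a 9 were called higher, 16 lower and 16 neither (60.98% called, against 55.6% of all tested genes, median -0.15). The split was 6 higher and 24 lower in TPM as deposited, and 10 higher and 13 lower in rescaled TPM. CTGF, a matricellular growth factor gene, rose by 0.81 ± 0.056 to 341 ± 21.5 scaled TPM in siMENA11a, against 194 ± 12.4 in control, and the transcription factor gene JUNB rose by 0.67 ± 0.0435. The related matricellular gene CYR61 fell by 0.65 ± 0.027, the tropomyosin gene TPM1 by 0.92 ± 0.033 and the matrix protein gene TGFBI by 0.34 ± 0.049. PMEPA1, a feedback inhibitor of the pathway, was called lower (-0.13 ± 0.041, adjusted p = 0.0222), a call lost in 5 of 14 other settings, among them the removal of control 1 (adjusted p = 0.0507), control 2 (0.0585), siMENA11a 1 (0.0756) or siMENA11a 2 (0.0773). ID1, an early SMAD target, was not called (-0.04 ± 0.046, adjusted p = 0.462), but was lower in TPM as deposited (-0.17, adjusted p = 0.0263).

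Under siMENA, 11 target genes were called higher, 14 lower and 16 neither (60.98% called, against 49.4% of all tested genes, median -0.07), with 13 and 12 in TPM as deposited and 15 and 13 in rescaled TPM. TPM1 fell by 2.56 ± 0.033, TGFBI by 1.19 ± 0.049, the mesenchymal filament gene VIM by 0.93 ± 0.049 and CYR61 by 0.80 ± 0.027. TGFBI averaged 94.1 ± 7.19 scaled TPM in siMENA and 214 ± 1.65 in control. CTGF rose by 0.24 ± 0.056, and PMEPA1 (-0.05 ± 0.041, adjusted p = 0.362) and ID1 (-0.07 ± 0.046, adjusted p = 0.259) were not called. PLAU, the urokinase gene, picked after its values were seen, fell by 1.13 ± 0.121 under siMENA11a and by 1.29 ± 0.121 under siMENA. In siMENA11a against siMENA, 16 were called higher and 15 lower (75.6% called, against 58.7% of all tested genes, median 0.05). TPM1 was there at 1.63 ± 0.033, the secreted lipase inhibitor gene ANGPTL4 at 1.12 ± 0.054, TGFBI at 0.85 ± 0.049, CTGF at 0.57 ± 0.056 and the collagen gene COL1A1 at -1.13 ± 0.06. PMEPA1 (-0.08 ± 0.041, adjusted p = 0.114) and ID1 (0.02 ± 0.046, adjusted p = 0.676) were not called there, but both were lower in TPM as deposited (-0.30 and -0.19, adjusted p = 0.00295 and 0.0136). COL1A1 makes up most of the fibroblast marker sum given above, and the part of other cells in its change was not tested.

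**Figure D4:**
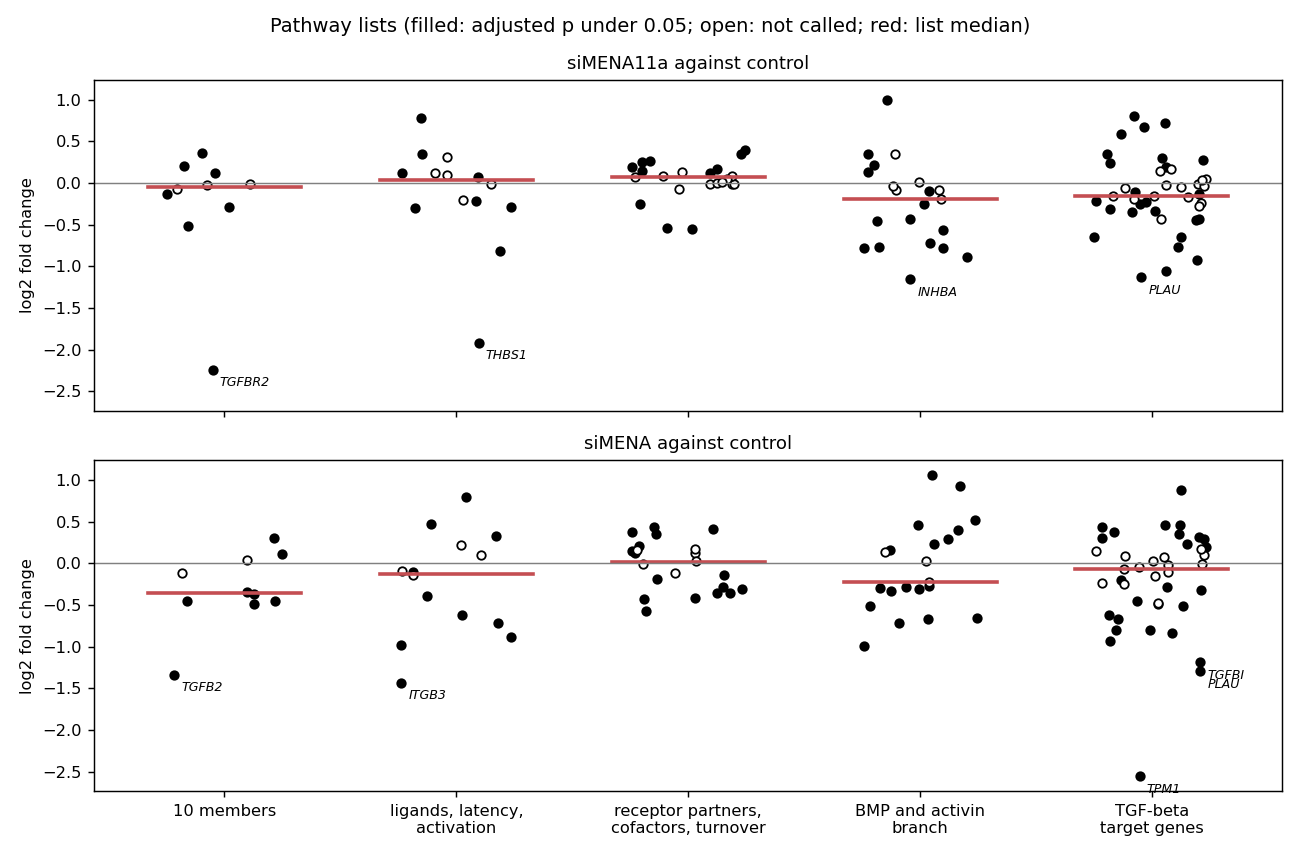
Log2 fold change (vertical axis) against control of the tested genes in 5 lists, for siMENA11a (upper) and siMENA (lower); points are genes, filled where the adjusted p was under 0.05, the red bar is the list's median, and genes past 1.1 in either direction are named. Medians lie between -0.36 and 0.08, and TGFBR2 and THBS1 stand lowest in the upper panel, TPM1 in the lower.

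The genes whose pattern over the 9 libraries was most like that of TGFBR2, among 9008 with a mean of at least 5 scaled TPM, were RCC2, CLDN1, TMEM2 and TNPO3 (Pearson r of 0.9996, 0.999, 0.998 and 0.997). The tight junction gene CLDN1 averaged 44.1 ± 0.795 scaled TPM in siMENA11a, 78.3 ± 1.13 in siMENA and 91.4 ± 2.79 in control. For TGFB2 they were TPM1, MTOR, NGRN and MYBL1 (r of 0.998, 0.997, 0.996 and 0.996). TPM1 averaged 191 ± 1.31 scaled TPM in siMENA11a, 61.3 ± 2.27 in siMENA and 362 ± 7.71 in control. The points of these correlations share libraries and fall into 3 groups. They thus describe the order and relative spacing of the group levels on the log2 scale, not the size of the changes. RCC2 averaged 38.6 ± 0.273 scaled TPM in siMENA11a, 57.9 ± 0.781 in siMENA and 64.4 ± 1.13 in control, a smaller fall than that of TGFBR2. An r over 0.95 was reached by 517 genes with TGFBR2 and by 280 with TGFB2. Among the members, TGFB1, TGFB2 and SMAD3 followed each other most closely over the 9 libraries, with r of 0.961 to 0.987.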

How the data were processed

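Total RNA of H2030 cells for 9 libraries was depleted of ribosomal RNA, made into stranded libraries and sequenced as read pairs, per the labels' protocols. The authors deposited 1 TPM value per gene and library, rounded to 2 decimals. Kallisto and GRCh37 are listed without role or version, per the submitters' processing notes, and the table's name points to merged RSEM gene values. No source used here names the aligner, its settings or whether strand was used. Because TPM does not carry depth, library depth is unknown and intervals for counting error are not given.

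TPM were divided by median-of-ratios size factors over 12341 genes with a mean of at least 1 TPM and no value of 0. The fit, on log2(scaled TPM + 0.5), kept genes whose mean reached 0.5 scaled TPM. It used limma 3.58.1 under R 4.3.3, with all 3 groups sharing the spread and a trend with the mean. The pipeline was tested on simulated data in which far fewer genes changed than were called here. No shift in scaling between libraries was simulated, so the scaling was not tested by it. The pseudocount understates changes of low genes. The members, gene lists and scaling were chosen with earlier results of these data known. All members are named. From each further list, up to 4 called genes per comparison with the smallest adjusted p are named where they are not described already, and a fixed set of further genes where measured, of which 1 is not reported here, nor is 1 of the cell type markers by name. Words and runs shared with the ENAH exon, and PLAU, were picked after values were seen. Alternatives were the scaling, pseudocount, filter, groups in the fit, the replicate block and each library left out. Words were searched in the longest annotated 3′ UTR per symbol in GENCODE 29 basic transcripts.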

Additional observations from a re-analysis of the deposited data

How the results depend on the processing

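Of the members' values under other settings, 395 kept their direction and side of the threshold. Without a change of sign, 14 lost a call and 3 gained one, and 8 changed sign. Among those that changed sign, for siMENA11a relative to control, SKIL also lost its call in TPM as deposited, and SMAD2 gained one in rescaled TPM. The changes of sign for siMENA11a relative to control were TGFB1 (0.0135), TGFBR1 (0.0576) and SMAD2 (0.0763) after removal of small and structured RNAs, and SKIL (-0.00718) in TPM as deposited, where ENAH (-0.0144) also changed sign. Leaving out 1 library, TGFBR1 ran from -0.0573 to 0.0264, positive without control 1, and SMAD2 from -0.0270 to 0.0213, positive without control 1 or siMENA11a 3. Between siMENA11a and siMENA, SKIL was at -0.14 in TPM as deposited. In that setting 1 member was called higher in siMENA11a than in control and 3 higher than in siMENA, where TGFB1, TGFBR1 and SMAD3 lost their calls. Leaving out 1 library gave 1 to 3 members higher in siMENA11a than in control (1 without control 3 or siMENA11a 3) and 1 to 2 higher in siMENA than in control (1 without control 2 or siMENA 3). Over all tested genes, 1965 were higher in siMENA11a than in control in TPM as deposited, against 3770. For siMENA relative to control, 2300 were lower in TPM as deposited and 2311 in rescaled TPM, where 5279 were higher, against 3478 lower and 3196 higher. Between siMENA11a and siMENA, TPM as deposited gave 2030 higher and 6321 lower, against 3984 and 3937. The causes were not tested. The libraries share replicate numbers, but deviations of same-numbered libraries correlated at only -0.065 to 0.058 over 9 pairs, and not every library correlated best with its own number, so the numbers were not taken to pair them. With the replicate block, SMAD7 in siMENA11a relative to control kept its value of 0.21 with an adjusted p of 0.0555, and 2 members were called higher there.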

Other observations

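Genes with a run of at least 15 bases in common with the 63-base exon of ENAH in their 3′ UTR were looked up after the run in SKIL was seen. There were 6 among 11320 searched. Under siMENA11a against control, ERLIN2 had a log2 fold change of -0.999, DICER1 of -0.35, EGLN1 of -0.18, SKIL of 0.12, MAP9 of 0.18 and DERL2 of 0.19. MAP9 was not called (limma adjusted p = 0.0724), and the other 5 had adjusted p of 3.09e-06 to 0.0233. The siRNA sequences were not used, so these values do not show whether any siRNA paired with a run. The part of the runs in these changes was not tested.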
